A study of Mus musculus with 2 samples.

Results

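Izumo1r and Myb T cells are alpha-beta T cells in which messages of the folate receptor family gene Izumo1r and the transcription factor gene Myb were counted at least 2 times together. They were found in mouse bone marrow, in a sort that aimed at progenitors of natural killer cells. The members were selected on raw counts of unique molecular identifiers (UMIs, each of which stands for 1 captured RNA molecule). A barcode was kept if it had at least 500 genes, at least 1000 UMIs and under 10% mitochondrial UMIs. A member then had at least 2 UMIs of Cd3d, Cd3e and Cd3g together and at least 1 of Trac, Trbc1 and Trbc2. It had none of Cd79a, Trdc, Ccr2, Klre1, Klrk1 or Klrc2, and at most 1 of Mki67 and Top2a. Of 20322 barcodes kept in both libraries, 712 met the rule. They were 171 of 7955 in the library labelled Irf4-/- and 541 of 12367 in the library labelled WT.

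By antibody staining the sorted cells carried CD122, the beta chain of the interleukin-2 and interleukin-15 receptors. They lacked Sca-1, NK1.1, c-kit, Ncr1 and the lineage markers. One group of mice was wild type C57BL/6, and the other was Irf4-/-, lacking the transcription factor IRF4. The labels give neither the age, sex and number of the mice nor the strain background and construction of the Irf4 allele. Each genotype gave 1 single-cell library, so no difference between the libraries has a replicate check, and cells of 1 library are not replicates. The intervals given throughout are exact 95% intervals for counting error alone.

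IZUMO1R, also called folate receptor 4 or JUNO, sits on the T cell surface and is known from regulatory T cells and from anergic and follicular helper CD4 T cells. MYB is a transcription factor of blood progenitors and thymocytes that also maintains stem-like CD8 T cells, and LEF1 and TCF1 are the transcription factors of naive and stem-like T cells. DAPL1 marks naive and stem-like CD8 T cells, and INPP4B is a phosphatase that dampens phosphoinositide signalling. CD122 is carried by natural killer cells and their precursors, and by memory-like CD8 T cells, so a sort on it can take both.

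The 2 selecting genes were present at low counts and only in part in the same cells. Exactly 2 UMIs of both genes together were counted in 87 members of the library labelled Irf4-/- and 298 of the library labelled WT, 3 UMIs in 39 and 124, and 4 or more in 45 and 119, with a highest count of 13 and 15. Just outside the rule stood 216 and 887 T cells that passed every other gate with 1 UMI, and 988 and 3658 had none. Members with Myb alone were 83 (48.5%, interval 40.8 to 56.3) and 303 (56.0%, 51.7 to 60.2). Members with Izumo1r alone were 45 (26.3%, 19.9 to 33.6) and 102 (18.9%, 15.6 to 22.4). Both genes were counted in 43 (25.1%) and 136 (25.1%). Myb was detected in 26.5% of the gated T cells with Izumo1r and in 18.5% of those without it in the library labelled Irf4-/-, and in 27.5% and 20.3% in the library labelled WT. The odds ratios were 1.59 and 1.49, and the 2 genes were counted together in a minority of the cells that had either. At so few UMIs a member with 1 gene counted may have the other uncounted. In B cells of the same libraries Izumo1r was counted in 0.101% and 0.594% of cells, where a cell had a median of 4148 and 2971 UMIs (members 10467 and 7736). The share of members with Izumo1r is set by the rule and is not compared with it. B cells had Myb themselves (33.3% and 18.5%), as B cell precursors do, and give no background for it.

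The 5 markers given with the label describe the members and do not check the label. Izumo1r and Myb are set by the rule. Lef1, Dapl1 and Inpp4b were chosen with earlier results of these data known. Lef1 was counted in 88.9% of members of the library labelled Irf4-/- and 83.5% of the library labelled WT, at 240 and 281 CPM, the gene's part of all UMIs of the summed cells in the field's usual depth-scaled unit. In the reference cells, T cells of the same gates with no UMI of Izumo1r or Myb, Lef1 stood at 229 and 275 CPM. Lef1 therefore did not set the members apart from their neighbours. Dapl1 was higher in members, at 249 and 306 CPM against 120 and 201. Inpp4b stood at 71.5 and 92.1 CPM against 45.7 and 72.0. Of 10 general T cell markers the rule used the 3 CD3 genes, and the other 7 (Cd247, Lck, Lat, Zap70, Cd2, Cd5 and Thy1) were each detected in at least 25% of members in both libraries. Of the sort's own genes, Il2rb (CD122) was counted in 83.6% and 73.9% of members, and Ncr1 in none. By a limit of 3 counts, which is no exact interval, a count of 0 allows up to 1.75% and 0.555% of members with an Ncr1 UMI, and it does not limit the cells that express the gene. Kit had 1 and 2 UMIs, Klrb1c (NK1.1) 1 and 4, and Ly6a (Sca-1) 10 and 7.

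Defining genes of other cell types were mostly at or near 0 in the members, with Ighm and Cd79b as exceptions. Markers that T cells share were counted. In at least 25% of members each were 2 and 1 of 9 natural killer markers, 2 of 8 of invariant natural killer T cells and 2 of 6 of dendritic cells. So were 2 and 1 of 9 thymocyte markers, 1 of 6 of mucosal-associated invariant T cells and 1 of 6 of progenitor B cells. Of 7 markers of type 2 innate lymphoid cells, 1 and 0 were. Notch1, of the thymocyte set, was counted in 46 and 125 members. Rag1, Rag2, Dntt and Arpp21 of developing lymphocytes had no UMI in either library, and Ptcra had 0 and 1. The invariant receptor segments Trav11 of natural killer T cells and Trav1 of mucosal-associated invariant T cells had no UMI in members. Any Trav segment was counted in only 46.2% and 36.6% of members, so these counts of 0 set little limit on such cells. Their shared factor gene Zbtb16 had 0 and 1 UMI. Of the B cell genes, Cd79a is 0 by the rule, Igkc had 7 and 14 UMIs, Cd74 5 and 22, Ms4a1 3 and 1, Ebf1 1 and 0, and the delta heavy chain gene Ighd 16 and 37. Cd79b, of the B cell receptor complex, had 25 and 75 UMIs, in 13.5% and 11.5% of members, in 13.6% and 11.2% of the reference cells and in 99.6% of B cells of both libraries. Ighm, the immunoglobulin mu heavy chain gene, was counted in 84.2% and 80.8% of members, at 208 and 236 CPM, and in 74.9% and 68.6% of the reference cells at 180 and 201 CPM. B cells had 3602 and 4044 CPM of Ighm beside 7605 and 8279 CPM of Igkc, so Ighm stood far above Igkc in the members and below it in B cells. The source of the Ighm counts was not tested. The 5 erythroid markers summed to 5.91 and 15.4 CPM in members.

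Irf4 itself gave 9 UMIs in 8 of 171 members of the library labelled Irf4-/- and 6 UMIs in 6 of 541 of the library labelled WT. That is 4.84 and 1.34 CPM (log2 ratio 1.86, interval 0.20 to 3.63), and in the reference cells it was 2.23 and 0.845 CPM. Reads at the 3′ end of the gene can come from outside the deleted part, so these counts do not check the genotype, and the libraries are called by their labels.

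Izumo1r and Myb T cells made up 2.15% (1.84 to 2.49) of the barcodes kept from the library labelled Irf4-/- and 4.37% (4.02 to 4.75) from that labelled WT, a log2 ratio of -1.03 (-1.28 to -0.77). At full depth the gates show where this gap arose. Among all alpha-beta T cells, before the Ccr2 and lectin receptor gates, cells with at least 2 UMIs of the selecting genes were 742 of 5700 and 1209 of 9535, or 9.33% and 9.78% of kept cells. Their log2 ratio as shares of kept cells was -0.07 (-0.20 to 0.07). The gate on Klre1, Klrk1 and Klrc2, which encode lectin-like receptors of natural killer cells, then removed 408 of 615 such cells (66.3%, 62.5 to 70.1) from the library labelled Irf4-/- and 474 of 1054 (interval 41.9% to 48.0%) from the library labelled WT. The same gate left 30.4% of all T cells that reached it in the library labelled Irf4-/- and 60.3% in the library labelled WT, and it removed 70.6% and 38.4% of those with no UMI of the selecting genes. Within the cells that passed all other gates, members were 12.4% (10.7 to 14.3) of 1375 and 10.6% (9.80 to 11.5) of 5086, a log2 ratio of 0.23 (-0.03 to 0.48). From the Ccr2 gate to the lectin receptor gate the shares of kept cells went from 7.73% and 8.52% to 2.60% and 4.69%, a log2 ratio of -0.85 at that point. The gate on the dividing-cell genes Mki67 and Top2a widened it to -1.03, leaving 171 of 207 cells and 541 of 580. Members of the library labelled Irf4-/- were also deeper, and the order within gated T cells turned when Izumo1r and Myb were counted in 2000 UMIs drawn from each cell (15 of 1369 cells against 98 of 5073). With the whole rule applied to such draws, members were 44 of 7920 and 138 of 12296 kept cells, a log2 ratio of -1.01. Of the gated T cells of those draws they were 44 of 2673 and 138 of 6542, a log2 ratio of -0.36 (-0.88 to 0.14). How much of the lectin receptor gate's removal at full depth came from depth was not tested.

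**Figure D1:**
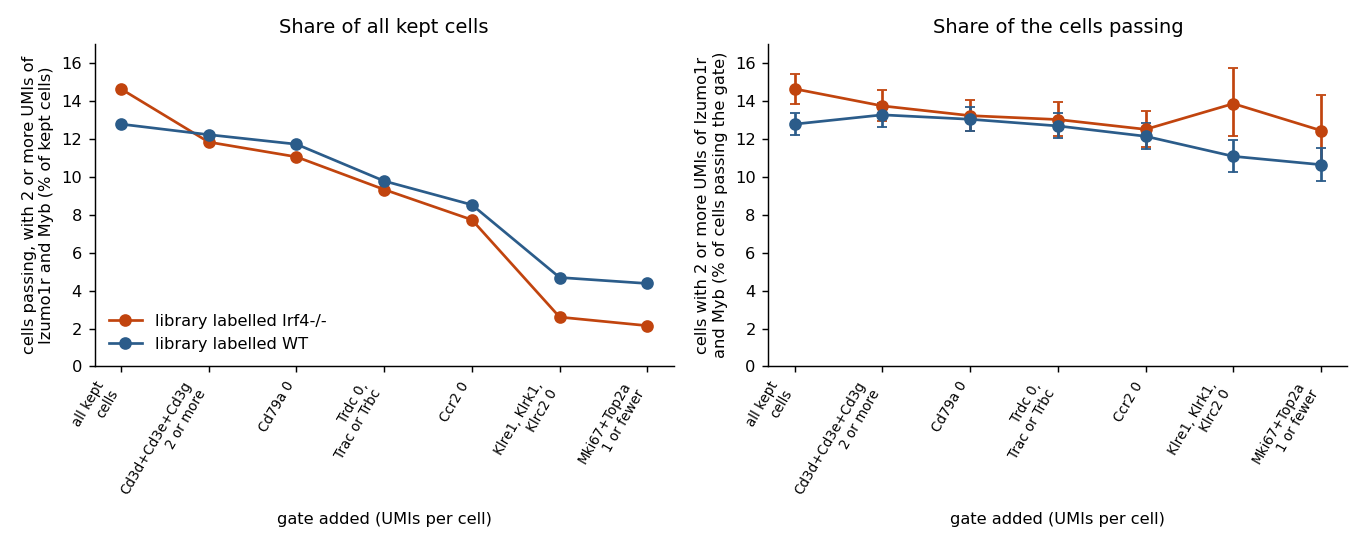
Share of cells with at least 2 UMIs of Izumo1r and Myb as each gate is added, for the library labelled Irf4-/- (orange) and the library labelled WT (blue). The left panel gives them as a percentage of all kept cells and the right panel as a percentage of the cells that passed the gate, with exact 95% intervals. The 2 lines part at the lectin receptor gate on the left, from 7.73% and 8.52% to 2.60% and 4.69%, and stay between 10.6% and 14.6% on the right.

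By coreceptor the members fell into 4 unequal classes. Cd8b1, the beta chain of the CD8 coreceptor of conventional CD8 T cells, was counted in 129 members (75.4%, 68.3 to 81.7) of the library labelled Irf4-/- and 422 (78.0%, 74.3 to 81.4) of the library labelled WT. Cd8a without Cd8b1 was found in 12 (7.02%) and 27 (4.99%). Neither Cd8 chain nor Cd4 was found in 24 (interval 9.20% to 20.2%) and 83 (15.3%, 12.4 to 18.7), and Cd4 without Cd8 in 6 (3.51%) and 9 (1.66%). Cd8b1 was counted in 0.506% and 0.950% of B cells. Any Cd8 message was present in 82.5% and 83.0% of members, against 72.6% and 80.8% of the reference cells. With 2000 UMIs drawn per cell it was 63.2% and 67.7% of members, so some cells without Cd8 may have Cd8 that was not counted.

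The classes had different genes, and each difference was seen in both libraries. Ikzf2, which encodes the transcription factor Helios of regulatory and agonist-selected T cells, stood at 161 and 121 CPM in members with Cd8b1, at 476 and 529 in those with Cd8a alone, and at 785 and 730 in those with neither coreceptor. In members with Cd4 it reached 1507 and 1245 CPM. Fcer1g, an adaptor of natural killer and innate-like T cells, ran from 10.8 and 11.8 CPM with Cd8b1 to 295 and 136 with Cd8a alone and 225 and 172 with neither. Cells with Cd8a alone were thus nearer to the coreceptor-negative cells than to those with Cd8b1 in both genes. Dapl1 went the other way, from 280 and 352 CPM with Cd8b1 to 105 and 84.8 with neither and 0 with Cd4. Itga4, the alpha-4 integrin chain, stood at 153 and 197 CPM with Cd8b1 and 335 and 453 with neither. Id3, an inhibitor of E proteins, stood at 179 and 175 CPM with Cd8b1 and 307 and 308 with neither. Eomes, a factor of memory and natural killer cells, stood at 106 and 91.3 CPM with Cd8b1 and at 71.8 and 59.7 with neither. Over all members, 4 of 7 markers of intraepithelial CD8-alpha-alpha precursors were each found in at least 25% of cells, with a summed level of 692 and 628 CPM. The reference cells had 5 and 4 of the 7 at that share and 676 and 559 CPM, so the set did not mark the members. Of its genes, Itgae had 1 and 17 UMIs in members, and Ccr9 was counted in 2 and 11 members. These classes were cut from counts of the same cells, so their values are descriptions.

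The Cd4 class was small and looked unlike the rest of the members. It held 6 and 9 cells, with Izumo1r at 436 and 507 CPM and Myb at 0 and 21.1 CPM. Foxp3, the lineage factor of regulatory T cells, stood at 436 and 106 CPM in it. Ccl5, a chemokine of memory and effector CD8 T cells, stood at 54.5 and 63.3 CPM there, against 1425 and 2149 in members with Cd8b1. A Foxp3 UMI was found in 8 members of the library labelled Irf4-/- and 11 of the library labelled WT, out of 12 and 24 such cells among all gated T cells. Of these 8 and 11, 8 and 10 had Izumo1r, 0 and 1 had Myb, 8 and 10 had Ikzf2, 5 and 8 had the costimulatory receptor gene Tnfrsf4, and 4 and 5 each had Ctla4 and Il2ra. Foxp3-positive cells therefore entered through Izumo1r and were 4.68% and 2.03% of the members. Of the 8 regulatory T cell markers, 2 were each found in at least 25% of members, and 2 in at least 25% of the reference cells. The 8 summed to 424 and 320 CPM in members and to 341 and 250 CPM in the reference cells. In B cells Foxp3 was counted in 0 of 988 cells, for which the limit of 3 counts is 0.304% of cells with a UMI, and in 0.119% of 842. Leaving these cells out, Izumo1r stood at 99.1 and 104 CPM over the remaining members.

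**Figure D2:**
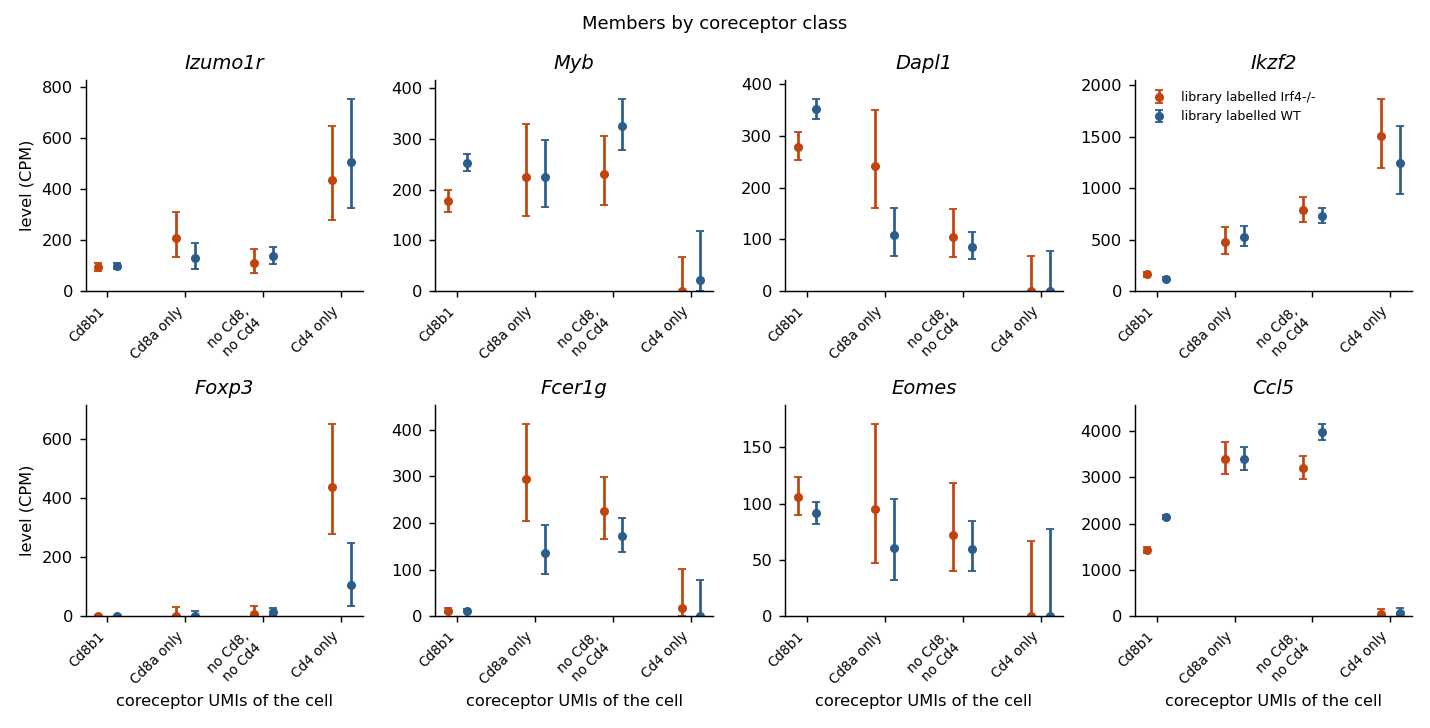
Levels in CPM of 8 genes in members grouped by coreceptor UMIs (Cd8b1, Cd8a only, neither, Cd4 only), with exact 95% Poisson intervals, orange for the library labelled Irf4-/- and blue for the library labelled WT. Ikzf2 climbs from left to right, Foxp3 and Izumo1r peak in the Cd4 class of 6 and 9 cells, and Fcer1g stands at 10.8 and 11.8 in members with Cd8b1.

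Members with Izumo1r alone, Myb alone or both also differed. Dapl1 was highest in members with both genes, at 400 and 374 CPM, against 144 and 212 with Izumo1r alone and 228 and 300 with Myb alone. Slamf6, a receptor of the SLAM family found on stem-like T cells, followed the same order in both libraries, at 211 and 174 CPM with both, 150 and 161 with Myb alone and 91.0 and 108 with Izumo1r alone. The 3 groups did not keep 1 order for Ccl5. In the library labelled WT it was highest with Izumo1r alone, at 4450 CPM against 1967 and 2028 in the other two, while in the library labelled Irf4-/- it stood at 1807, 1667 and 1682 CPM.

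Receptor segments varied widely within the members. A Trav segment was counted in 79 (46.2%, 38.6 to 54.0) and 198 (36.6%, 32.5 to 40.8) members, spread over 43 and 59 of the 128 segments in the files. The most frequent were Trav16 in 8 cells of the library labelled Irf4-/- and Trav3-3 in 15 of the library labelled WT. A Trbv segment was counted in 96 (56.1%, 48.4 to 63.7) and 248 (45.8%, 41.6 to 50.1), over 22 and 21 of 35 segments. No segment was found in more than 11.7% of the cells in which a segment of its chain was counted. The reference cells had a Trav segment in 36.0% and 28.9% and a Trbv segment in 40.1% and 35.7%. Counting at the 3′ end seldom reaches V segments, so many cells show none, and no clone can be read from these counts.

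Against the reference cells of the same library the members had more Dapl1, Smc4, Slamf6, Cd28 and Sh2d1a and less Ccl5, Fcer1g and Cd7. Because members were chosen by their counts in these cells, these values describe them and carry no test. Of 2037 genes with a mean of at least 50 CPM, 10 (0.491%) were at least 0.5 higher on the log2 scale in both libraries and 3 (0.147%) at least 0.5 lower, and nothing is read from those shares. The 10 were Dapl1, Smc4, Slamf6, Mxd4, BE692007, Cd28, Sh2d1a, Tspan32, Cmtm7 and Zfas1. The 3 were Ccl5, Fcer1g and Cd7.

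Dapl1 stood at a log2 ratio of 1.05 and 0.61 over the reference cells, in the order library labelled Irf4-/- and then library labelled WT. A single member of the library labelled Irf4-/- held 66 of the 464 Dapl1 UMIs of the members of that library. Smc4, the condensin subunit that compacts chromosomes in mitosis, was at 508 and 587 CPM in members and at 274 and 350 in reference cells, log2 ratios of 0.89 and 0.75. It was counted in 88.3% and 89.5% of members, although the rule allowed at most 1 UMI of Mki67 and Top2a. Of the other condensin genes, Smc2 stood at 27.4 and 27.8 CPM against 29.2 and 26.4, and Ncapd3 at 27.4 and 30.5 against 33.0 and 33.1. Ncapd2, Ncapg and Ncaph each had 25 UMIs or fewer in members. Ift80, an intraflagellar transport gene, lies next to Smc4 on the opposite strand. In the mm10 build Ift80 spans chromosome 3, 68892499 to 69004570 on the minus strand, and Smc4 spans 69004738 to 69034623 on the plus strand. Ift80 was also higher, at 67.7 and 60.8 CPM against 27.6 and 32.6. Trim59, on the other side of Smc4, stood at 51.1 and 56.1 CPM against 34.0 and 41.2. The condensin genes and the neighbours were looked up after the value of Smc4 was seen.

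Slamf6 was at 150 and 156 CPM in members and at 84.9 and 90.6 in reference cells, log2 ratios of 0.82 and 0.78. Sh2d1a, which encodes the SAP adaptor that signals from SLAM receptors, stood at 173 and 186 CPM against 107 and 117. Of the other SLAM receptors, which were added to the account after these values were seen, Cd84 stood at 122 and 128 CPM against 81.3 and 99.5, and Slamf1 at 10.2 and 9.35 against 4.14 and 5.30. Cd48 and Ly9 lay within 0.3 of 0 on the log2 scale, and Cd244a, with 4 and 6 UMIs, was lower in both libraries (-1.33 and -1.34). Cd28, the costimulatory receptor, stood at 126 and 150 CPM against 74.5 and 97.3. Cd5, a brake on receptor signalling whose level follows the strength of self recognition, stood at 127 and 131 CPM against 80.7 and 98.8. Jarid2, Eomes and Nrip1 were also among the 15 highest ratios, and each stood further from the reference in the library labelled Irf4-/-. For Jarid2, a Polycomb cofactor, the ratios were 1.08 and 0.40, for Eomes 0.94 and 0.35, and for Nrip1, a nuclear receptor corepressor, 0.78 and 0.44.

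Ccl5 was the lowest gene against the reference. It stood at 1706 and 2397 CPM in members and 3744 and 3777 in reference cells, log2 ratios of -1.13 and -0.66, and was still counted in 78.4% and 81.1% of members. Fcer1g followed with -0.98 and -0.68 and Cd7, a T and natural killer cell surface receptor, with -0.97 and -0.62. S100a6, a calcium-binding protein of memory cells, had -1.12 and -0.31. Restricting both sides to cells with Cd8 left Dapl1 at 0.94 and 0.58, Smc4 at 0.94 and 0.74 and Slamf6 at 1.08 and 0.89. Fcer1g moved from lower to higher when all members were set against reference cells with Cd8 (mean of both libraries 0.56), and it was -0.29 when both sides had Cd8. The Cd7 ratios were smaller in size when both sides had Cd8, at -0.35 and -0.28, while Ccl5 stood at -0.88 and -0.58 there. The place of Fcer1g and the size of the Cd7 ratios thus depended on the coreceptor makeup of the cells compared.

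**Figure D3:**
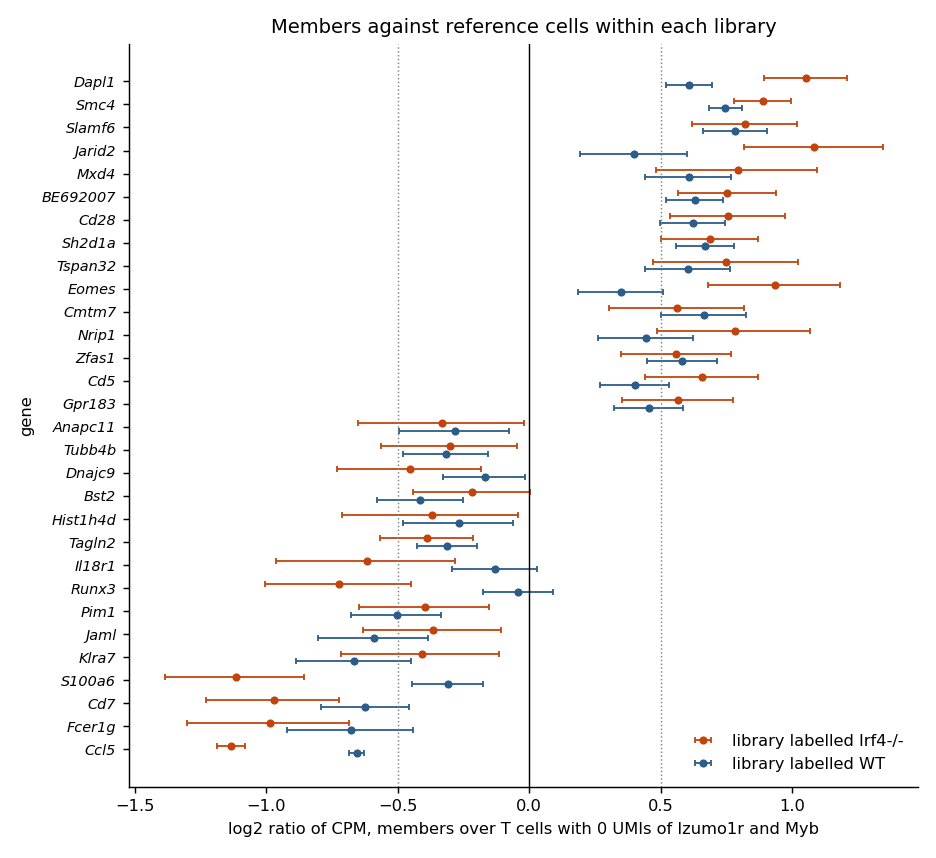
Log2 ratio of CPM, members over T cells of the same gates with no Izumo1r or Myb UMI, for the 15 highest and 15 lowest genes by the mean of both libraries, with exact 95% intervals, orange for the library labelled Irf4-/- and blue for the library labelled WT. Dotted lines mark 0.5 in either direction. Dapl1, Smc4 and Slamf6 lie beyond 0.5 in both libraries, while Jarid2 and S100a6 do so in 1.

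Cells just outside the rule lay between the reference cells and the members. In the library labelled WT Smc4 stood at 350 CPM with 0 UMIs of the selecting genes, at 443 with 1, at 509 with 2 and at 673 with 3 or more, and in the library labelled Irf4-/- at 274, 361, 431 and 582. Dapl1 ran through 201, 223, 247 and 372 CPM in the library labelled WT and through 120, 154, 191 and 306 in the library labelled Irf4-/-. Slamf6 ran through 90.6, 105, 129 and 186, and through 84.9, 99.1, 128 and 172. Ccl5 ran down, through 3777, 2987, 2743 and 2012 and through 3744, 2638, 1959 and 1461. The summed levels of these genes thus changed step by step with the count of the selecting genes. Summed levels cannot tell a gradient among cells from a mixture of distinct cells in which Izumo1r or Myb went uncounted. The spread over single cells was not examined. Median depth moved with the count as well, from 7104 to 7861 UMIs and from 9530 to 10878. Its part in these values was not tested.

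**Figure D4:**
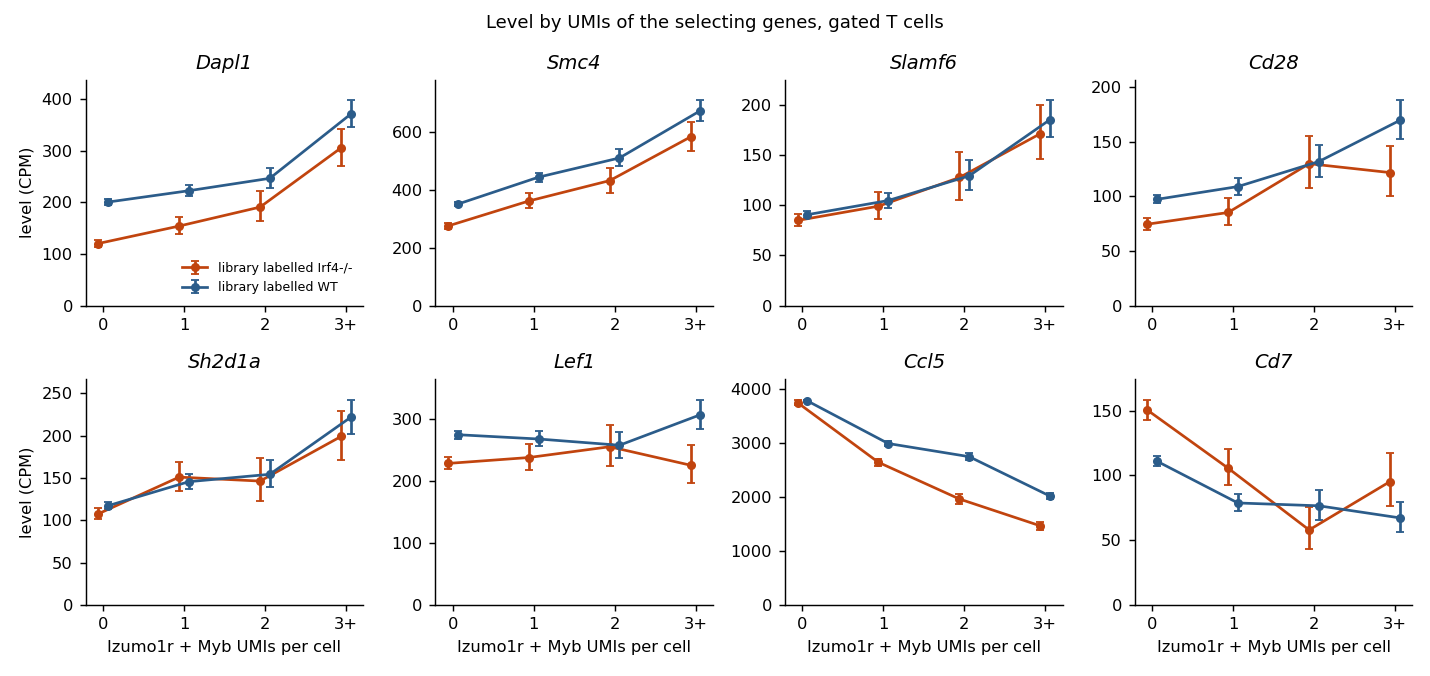
Level in CPM of 8 genes in gated T cells with 0, 1, 2 and 3 or more UMIs of Izumo1r and Myb, with exact 95% Poisson intervals, orange for the library labelled Irf4-/- and blue for the library labelled WT. Dapl1, Smc4, Slamf6 and Sh2d1a are highest at 3 or more UMIs in both libraries, Ccl5 is lowest there, and Lef1 has no steady slope.

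Lists of genes with known roles were compared with the reference cells by summed levels, which do not tell how many members carried a gene. At a minimum of 20 UMIs in members, 1.64% of 8481 genes lay at least 0.5 higher than the reference in both libraries and 0.33% at least 0.5 lower, and the median over all of them was 0.06 and 0.05. Of the 8481, 3224 (38.01%) had a ratio above 0 in both libraries and 1650 (19.5%) below 0 in both, and higher and lower in both are meant in this way for the lists. Inhibitory and anergy genes, which restrain T cell activation, had 16 members measured besides Izumo1r. Their medians were 0.94 and 0.48, 14 of 16 were higher in both libraries and 8 lay beyond 0.5 in both. Among them Cd200, the ligand of an inhibitory receptor, was at 13.98 and 10.9 CPM against 1.49 and 1.58. It was still at 12.9 and 10.4 CPM without the Foxp3-positive members. Ctla4, which takes CD28 ligands away, stood at 5.38 and 6.01 CPM, and at 2.80 and 4.74 without those cells, against 0.637 and 1.38 in the reference. Nrp1, a semaphorin receptor of thymic regulatory T cells, stood at 7.53 and 8.46 CPM, and at 3.36 and 7.68 without them, against 0.424 and 1.498. Of the genes of exhausted cells, Pdcd1 stood at 6.45 and 7.57 CPM and Lag3 at 2.69 and 6.90, and both belong to this list. Few members carried some of these genes: Ctla4 was counted in 7 and 20, Pdcd1 in 10 and 21 and Lag3 in 5 and 21. Slamf6, of the same list, was counted in 111 and 328.

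Of 13 stem-like and naive transcription factors other than Myb, 10 were higher than the reference in both libraries, with medians of 0.25 and 0.20 and none beyond 0.5 in both. Tcf7 stood at 332 and 344 CPM against 264 and 295, Id3 at 198 and 190 against 145 and 143, and Tox at 69.9 and 58.8 against 44.6 and 50.4. Of 10 natural killer receptor genes, none was higher in both, and the medians were -0.44 and -0.39. The rule itself removed 3 genes of that list. Of 12 cytotoxic and granule genes, 9 were lower in both, with Gzmm, a granzyme, at 12.4 and 16.5 CPM against 32.5 and 36.9. T cell receptor signalling genes were higher in both libraries for 15 of 25 and lower for 2. The folate genes, fixed as a list because IZUMO1R belongs to the folate receptor family, showed no member higher in both of 8 measured, and Folr1 had no UMI.

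Between the libraries the members differed in few genes of appreciable level. Of 2068 genes with a mean of at least 50 CPM, 20 (0.967%) were at least 0.5 higher on the log2 scale in the library labelled Irf4-/- and 24 (1.16%) at least 0.5 lower, with a median over all of 0.02. Dividing by the median ratio over genes in place of the UMI totals gave 15 higher and 30 lower. The interval of every one of the 20 and 24 excluded 0, but it holds counting error alone. Of the 15 highest and 15 lowest ratios, all 30 at least 0.5 in size, 14 stayed past 0.5 with the same sign when the rule was applied to 2000 UMIs drawn from each cell. Without the Ccr2 and lectin exclusions 10 of the 30 did, and with either scaling of the totals 25 or more did. Members of the library labelled Irf4-/- were deeper, with a median of 10467 UMIs against 7736, as were all kept cells, with 9540 against 7125. Mitochondrial UMIs had medians of 3.88% and 3.57%. Depth moved with the library label, and its part in these ratios cannot be told apart from the genotype.

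The highest gene was Myc, a driver of cell growth, with 144 UMIs and 77.4 CPM in the library labelled Irf4-/- against 181 UMIs and 40.3 CPM in the library labelled WT, a log2 ratio of 0.94 (0.62 to 1.27). The reference cells had 0.57 (0.44 to 0.70). Xcl1, a chemokine that draws cross-presenting dendritic cells, stood at 148 and 78.6 CPM, 0.91 (0.68 to 1.14), with 1.02 in the reference cells. A single WT cell held 125 of the 353 Xcl1 UMIs of that library, and without the highest cell of each library the ratio was 1.42 (1.16 to 1.69). Ifi27l2a, an interferon-induced gene, stood at 516 and 280 CPM, 0.88 (0.76 to 1.01), with 0.90 in the reference. These 3 genes were higher in T cells with and without the selecting genes. With the rule applied to 2000 UMIs drawn from each cell, which left 44 and 138 cells, Myc turned to -0.16.

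For other genes the ratio lay further from 0 in the members than in the reference cells, and that difference was not tested. These genes were taken from the ends of a ranking by the members' own ratios. That ranking alone favours ratios further from 0 in the members, so the genes cannot be called particular to them. Jarid2 stood at 91.9 and 55.0 CPM in members, 0.74 (0.45 to 1.03), and at 0.06 (-0.11 to 0.22) in the reference cells. In the 44 and 138 cells chosen at 2000 UMIs per cell Jarid2 turned to -0.61. Smarcc1, a chromatin remodelling subunit, had 0.78 (0.45 to 1.11) and 0.12 (-0.04 to 0.27), but 0.06 in those 44 and 138 cells. Id2, which with Id3 restrains E proteins and supports effector and innate lymphocytes, had 98.9 and 68.1 CPM, 0.54 (0.27 to 0.81), and 0.04 (-0.09 to 0.16) in the reference. Where cells were chosen on at least 2 UMIs of Izumo1r, whatever their Myb count, Id2 turned to -0.71. Ybx3, an RNA-binding protein, had 0.88 and 0.34. The remaining genes of the 15 highest were Ndufa5 (0.63) and Ndufb2 (0.55) of respiratory complex I, Cox17 (0.56) of cytochrome oxidase assembly, Pgam1 (0.56) of glycolysis, Glrx2 (0.58), Ost4 (0.59), Erh (0.53, and 0.47 without the highest cell of each library) and the junctional adhesion gene Jaml (0.70).

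The lowest gene was Runx3, a transcription factor of CD8 and cytotoxic cells, at 66.1 CPM in the library labelled Irf4-/- and 120 in the library labelled WT, with 123 and 540 UMIs. Its log2 ratio was -0.86 (-1.16 to -0.58), and -0.18 (-0.29 to -0.08) in the reference cells. In the 638 and 1112 cells that a rule without the Ccr2 and lectin exclusions takes, Runx3 was at -0.22. Il7r, the interleukin-7 receptor chain of naive and memory T cells, stood at 309 and 534 CPM, -0.79 (-0.92 to -0.66), and at 381 and 558 CPM, -0.55, in the reference. Il18r1, a chain of the interleukin-18 receptor, stood at 44.6 and 79.9 CPM, -0.84 (-1.20 to -0.49), with -0.36 in the reference. Without those exclusions Il18r1 was at -0.19, and in the cells chosen at 2000 UMIs Il7r was at -0.24. Both receptor genes were lower in T cells with and without the selecting genes. Cdkn2d (-0.63), Btg2 (-0.58) and Pik3ip1 (-0.57), which hold cells in quiescence, and the histone methyltransferase genes Kmt5b (-0.83) and Kmt2e (-0.57) were among the 15 lowest. So were Pcf11 (-0.77), Aak1 (-0.75), Trp53inp1 (-0.71), Filip1l (-0.66) and Peak1 (-0.57). S100a6 had -0.68 (-0.97 to -0.40) and Ctla2a, a cathepsin inhibitor, -0.57 (-0.71 to -0.43).

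Of the selecting genes, Izumo1r had nearly the same level in both libraries, 113 and 108 CPM (log2 0.07, -0.17 to 0.30), and Myb was at 181 and 258 CPM (-0.51, -0.69 to -0.34). These levels were used by the rule and are given as a description. Dapl1 in members stood at -0.29 (-0.45 to -0.14) between the libraries and at -0.74 (-0.83 to -0.65) in the reference cells. Without the highest cell of each library the ratio in members was -0.48 (-0.65 to -0.32). Cd8b1 stood at -0.41 (-0.52 to -0.31).

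**Figure D5:**
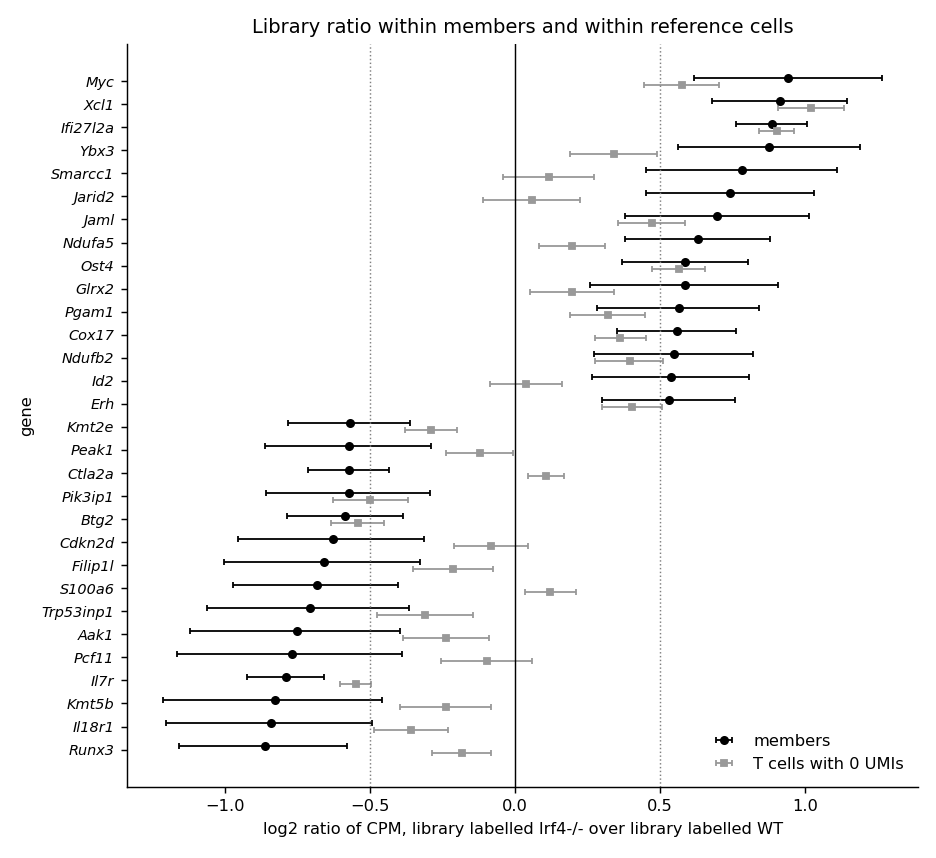
Log2 CPM ratio of the library labelled Irf4-/- to that labelled WT, for the 15 highest and 15 lowest genes within the members (black circles) and for the same genes in T cells with no Izumo1r or Myb UMI (grey squares), with exact 95% intervals for counting error. Ifi27l2a, Xcl1 and Il7r have like ratios in both sets of cells, whereas Jarid2, Id2 and Runx3 stand further from 0 in the members. S100a6 and Ctla2a have opposite signs. The genes were ranked by the members' ratios, which alone favours ratios further from 0 there.

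Lists of lower genes were read at a minimum of 20 UMIs over both libraries. At that minimum 8.04% of 8481 genes were at least 0.5 higher and 9.75% at least 0.5 lower in the library labelled Irf4-/-, with a median of 0.00 over all and 4210 above 0. MHC class I genes, which present peptides to CD8 T cells, were above 0 for 14 of 14, with a median of 0.27 and none beyond 0.5. H2-T23 stood at 228 and 169 CPM, H2-Q7 at 599 and 444 and H2-Q6 at 144 and 108. H2-Q6 and H2-Q7 are near copies, so their split of reads is uncertain. Interferon response genes were above 0 for 24 of 34 with a median of 0.16, and 6 were beyond 0.5 higher and 3 lower. Usp18, a brake on interferon signalling, stood at 24.7 and 9.57 CPM (log2 ratio 1.37), and Oas1a, an oligoadenylate synthetase, at 5.91 and 2.003. Ifit2 stood at 6.45 and 15.8 CPM. Ifit3 had 0 UMIs against 122, at least 16.8-fold lower by a floor of 3 counts over the summed cells. Ifit1bl1, looked up after Ifit3 was seen, had 0 against 161, at least 22.2-fold lower, and no UMI in any kept cell of the library labelled Irf4-/-. The Ifit genes are near copies of each other, so how the counting shared reads among them is uncertain.

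Natural killer receptor genes were above 0 for 9 of 10 measured, with a median of 0.41 and 4 beyond 0.5. Klra9, of the Ly49 family, stood at 19.4 and 7.57 CPM in 11 and 15 cells, and Klrc1 at 10.2 and 4.45. Ly49 genes are also near copies of each other. Immediate-early genes, switched on within minutes of receptor signals, were above 0 for 19 of 23, with a median of 0.27 and 8 of 23 beyond 0.5. Egr1 stood at 26.9 and 10.0 CPM and Egr3 at 27.4 and 7.34, but each was counted in few cells, 11 and 29 for Egr1 and 12 and 19 for Egr3. The highest cell held 32.0% of the Egr1 UMIs and 39.2% of the Egr3 UMIs of the library labelled Irf4-/-. Among cytokines, Ccl4 had a log2 ratio of 1.56, which was 0.53 (-0.13 to 1.16) without the highest cell of each library. Ccl3 had 2.43, from 7 and 6 cells. Il2ra, the alpha chain of the interleukin-2 receptor, stood at 13.98 and 2.67 CPM (2.39, 1.35 to 3.51) in 9 and 8 cells, and at 3.92 and 1.13 CPM without the Foxp3-positive members. Gzmk, a granzyme of memory CD8 cells, had 0 UMIs in the library labelled Irf4-/- and 34 in 12 members of the library labelled WT, at least 4.69-fold lower.

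Of the other lists, stem-like and naive transcription factors were above 0 for 2 of 13 with a median of -0.14, and none lay beyond 0.5. Satb1, an organiser of chromatin in thymocytes and naive cells, stood at 228 and 294 CPM (-0.36, -0.52 to -0.20), and Tcf7 at -0.05. Quiescence genes were above 0 for 5 of 15 with a median of -0.26, with 1 beyond 0.5 higher and 3 lower. Phosphoinositide genes were above 0 for 5 of 16 with a median of -0.20 and 2 beyond 0.5 lower, Pik3ip1 and Pik3r1 (-0.53). Survival and death genes were above 0 for 11 of 17, with a median of 0.21, 5 beyond 0.5 higher and 1 lower. Effector transcription factors were above 0 for 7 of 10, with a median of 0.31. Beyond 0.5 lay 2 higher, Id2 and Gata3 (0.54, 0.10 to 0.97), and 3 lower. The 3 were Runx3 (-0.86), Maf (-2.34) and Prdm1 (-1.98). Maf had 4 and 49 UMIs in 3 and 22 cells, and Prdm1 had 2 and 19 UMIs in 2 and 17 cells. Inhibitory and anergy genes, which stood out against the reference, were above 0 for only 7 of 16 between the libraries, with a median of -0.03. S phase genes, which replicate DNA, were above 0 for 12 of 19 with a median of 0.11 and 3 beyond 0.5 higher. Cytokine receptor and JAK-STAT genes were above 0 for 15 of 26, with 4 beyond 0.5 higher and 3 lower. Of 6 Irf family genes 2 were above 0, and Irf8, a factor of myeloid and B cells, lay beyond 0.5 higher (0.67, -0.09 to 1.41), but not without the highest cell of each library (0.23, -0.67 to 1.08). T cell receptor signalling, homing, cytotoxic, Gimap, S100 and folate genes had medians between -0.08 and 0.00, with few members beyond 0.5. These were S100a4 and S100a6 lower, 1 gene higher each in the signalling, homing and folate lists, and 1 higher and 1 lower among the cytotoxic genes.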

How the data were processed

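Sorted bone marrow cells gave single-cell 3′ libraries with a Chromium v3 kit, per the labels' protocols. These name nuclei at the kit step, although cells were sorted. The authors deposited raw UMI counts per gene and barcode, made with Cell Ranger 6.1.1 per the file headers, on mm10 per the submitters' processing notes. Gene positions are from GENCODE M21, since no release of the annotation was found in the labels or headers. Counts were summed over cells and divided by the summed UMIs (CPM). With 1 library per group there was no test: shares have Clopper-Pearson intervals, levels Poisson intervals and ratios conditional binomial intervals, all 95% and for counting error only. The ratio step was tested on simulated data. No doublet caller was run. Kept barcodes shared by both libraries numbered 25, of which 4 were members in 1 library and 0 in both.

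The members, lists and marker sets were chosen with earlier results of these data known. Genes named are those of the rule and sort, the 5 markers, the 15 highest and lowest ratios at a mean of at least 50 CPM, and up to 4 members of each list at 20 UMIs. Predicted, mitochondrial, ribosomal, immunoglobulin and haemoglobin genes were not ranked. Alternatives changed the rule, depth, filter, scaling and reference cells. Python 3 with numpy, scipy, pandas and matplotlib was used.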

Additional observations from a re-analysis of the deposited data

Results flagged for a closer look

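S100a6 and Ctla2a were the 2 genes, among the 15 highest and 15 lowest library ratios in members, whose ratio had the opposite sign in the reference cells, with both intervals away from 0. S100a6 had a log2 ratio of -0.68 (library labelled Irf4-/- over library labelled WT) in members and 0.12 in the T cells with no UMI of Izumo1r or Myb. Ctla2a had -0.57 in members and 0.11 in those T cells. The difference between the 2 sets of cells was not tested, and the genes were ranked by the members' ratios alone. S100a6 was counted in 42 and 130 members, and in the library labelled WT 1 cell held 45 of its 504 UMIs. S100a6 stood at 599 and 1034 CPM in the 6 and 9 members with Cd4, and without members that have a Foxp3 UMI its ratio was -1.12.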

How the results depend on the processing

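Cells chosen on Izumo1r (63 and 149) or on Myb (108 and 373) had at least 2 UMIs of that gene, whatever the count of the other. The share of members among kept cells had a log2 ratio of the libraries of -1.03. It was -0.61 for cells chosen on Izumo1r and -0.16 without the exclusions on Ccr2 and lectin receptors. As a share of gated T cells it was 0.23. With Izumo1r and Myb counted in 2000 UMIs per cell, it was -2.07 of kept cells (15 and 98 cells). Genes at least 0.5 higher and lower between the libraries (20 and 24) numbered 522 and 322 with every cell thinned before the rule. They numbered 87 and 61 from 3 UMIs, 70 and 92 in cells chosen on Izumo1r and 251 and 272 in members without Cd8. At 20 CPM they numbered 124 and 129, and at 20 UMIs 682 and 827. Cells chosen on Myb gave 84 higher, and dropping the Ccr2 and lectin exclusions 10 lower. Fewer cells or UMIs per gene entered in the first 6 of these. Against the reference (10 higher, 3 lower), cells with 1 UMI gave 3 and 0, thinning 93 and 21, a Cd8-positive reference 0 lower, a gamma-delta reference 36 lower, and Cd8-positive cells on both sides 1 lower. The share with Cd8 was 63.2% and 67.7% after thinning, and 78.2% in the library labelled WT from 2 coreceptor UMIs.

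Reversed library ratios with thinning were Btg2 0.087, Cdkn2d 0.51, Ctla2a 0.28, Glrx2 -2.44, Jaml -1.26, Jarid2 -0.61, Myc -0.16, Pcf11 0.48, Trp53inp1 0.65 and the immediate-early median -0.16. Id2 was -0.71 in cells chosen on Izumo1r. In members without Cd8, S100a6 was 0.15, the natural killer receptor median -0.14 and the immediate-early median -0.056. Without the Ccr2 and lectin exclusions Ctla2a was 0.11, Peak1 0.0010 and S100a6 0.53. Against other references Fcer1g was 0.56 and Klra7 0.065 (Cd8-positive) and Cmtm7 -0.28 (gamma-delta), and with thinning Dnajc9 was 0.12. The cause was not tested. Of the 30 named library ratios, 14 stayed past 0.5 with thinning (7 fell short, 9 reversed) and 10 without the Ccr2 and lectin exclusions (17 and 3). Of the values for single genes and lists, 622 held, 146 moved and 21 reversed. A library ratio or share moved if it left its counting interval, and a list median if it left the interval of that median. A ratio to the reference moved if it shifted by more than the 2 libraries differed in it. Leaving out Foxp3-positive members, matching Cd8 on both sides, dropping the Ccr2 and lectin exclusions for gene ratios and thinning the selecting genes alone were chosen after seeing the data. No paired analysis was possible because the labels give no replicate numbers and each group has 1 library.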

Other observations

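The lectin receptor gate set aside 363 and 441 alpha-beta T cells with at least 2 UMIs of Izumo1r and Myb and a UMI of Klre1, Klrk1 or Klrc2 that passed all other gates (libraries labelled Irf4-/- and WT). They had less Dapl1 than the members, at 52.8 and 139 CPM, and less Cd8b1, at 171 and 296 CPM. Their Ccl5 was higher, at 4295 and 3871 CPM, and so was Ikzf2, at 401 and 324 CPM. Compared with T cells that had a lectin receptor UMI and none of Izumo1r or Myb, they had more Slamf6, at 126 and 155 CPM against 73.1 and 98.9, more Smc4, at 397 and 484 CPM against 206 and 287, and less Ccl5, against 6297 and 5667 CPM. The same 3 genes differed in the same direction between the members and their own reference cells.

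Slamf7, a SLAM receptor of natural killer and effector cells looked up after Slamf6 was seen, stood at 37.6 and 18.9 CPM in members, a log2 ratio of 0.99 (0.51 to 1.47) between the libraries. Gzmk, at 0 UMIs in members of the library labelled Irf4-/-, had 1 UMI in all kept cells of that library and 721 in the library labelled WT. Ifit1bl1 had 0 and 2768, and Ifit3 had 16 and 2687.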
